A study of Mus musculus with 2 samples.

Results

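Barx1, Foxf1, Foxf2, Foxl1, Tcf21, Osr1, Nr2f1 and Nr2f2 are 8 transcription factor genes known for their roles in the mesenchyme of the developing stomach and its neighbouring organs. They were taken by symbol from a list of 8 names and make up 8 of the 43346 Ensembl genes in the tables, of which 42462 matched a gene symbol. The 2 libraries were made from total RNA of stomachs of B6NCrl mouse embryos at embryonic day 14.5 (E14.5), with no mutation, transgene or treatment in the labels. Each library came from the single stomach of 1 pup, collected on day 15 (replicate 1) and day 17 (replicate 2) of the same month, while the labels also give the sex as pooled male and female. There was 1 group, so the values below describe levels in the whole stomach and how far the 2 libraries differed, and no condition was compared.

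The stomach wall forms from an epithelial tube wrapped in mesenchyme, and signals pass both ways between them. Hedgehog proteins from the epithelium act on the mesenchyme and, in mouse gut, raise the forkhead genes Foxf1 and Foxl1. The mesenchyme in turn sends Bmp and Wnt signals and secreted Wnt antagonists back. In mouse, Barx1 is needed in stomach mesenchyme for the epithelium to become gastric, and it acts there in part through the Wnt antagonists Sfrp1 and Sfrp2.

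Both libraries were of similar depth, with 25072242 expected counts (estimated read numbers) in replicate 1 and 25599910 in replicate 2. Added spike-in RNAs took 5.60% and 6.71% of those counts. Markers of the stomach's tissue layers were present in both libraries. Summed over each list, in TPM (transcript copies relative to a fixed total, a level per length), fibroblast markers reached 4086 and 3774, smooth muscle markers 3835 and 3613, and epithelial markers 1384 and 1217. No read was counted for the lung and thyroid factor Nkx2-1 (0 counts, where up to 3 per library could have been missed). Replicate 1 stood apart in its exocrine pancreas genes, with a summed 476 TPM against 3.90 in replicate 2. All 7 genes on that list were over 2-fold higher in replicate 1, 5 of them with an average of at least 100 counts. The defining pancreatic factor Ptf1a had 99 counts in replicate 1 and 0 in replicate 2.

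All 8 factors were expressed at TPM 1 or more in both libraries, against 35.4% of all genes with a symbol and 61.8% of protein-coding genes. Their levels spanned a wide range, from Tcf21 at the top to Foxl1 at the bottom. In bulk tissue, fewer cells of a type and less RNA per cell cannot be told apart, so these are levels of the organ and not of any one cell. The 8 genes together took 654 TPM in replicate 1 and 663 TPM in replicate 2, of which Tcf21 alone made up 42.6% and 45.2%.

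**Figure D1:**
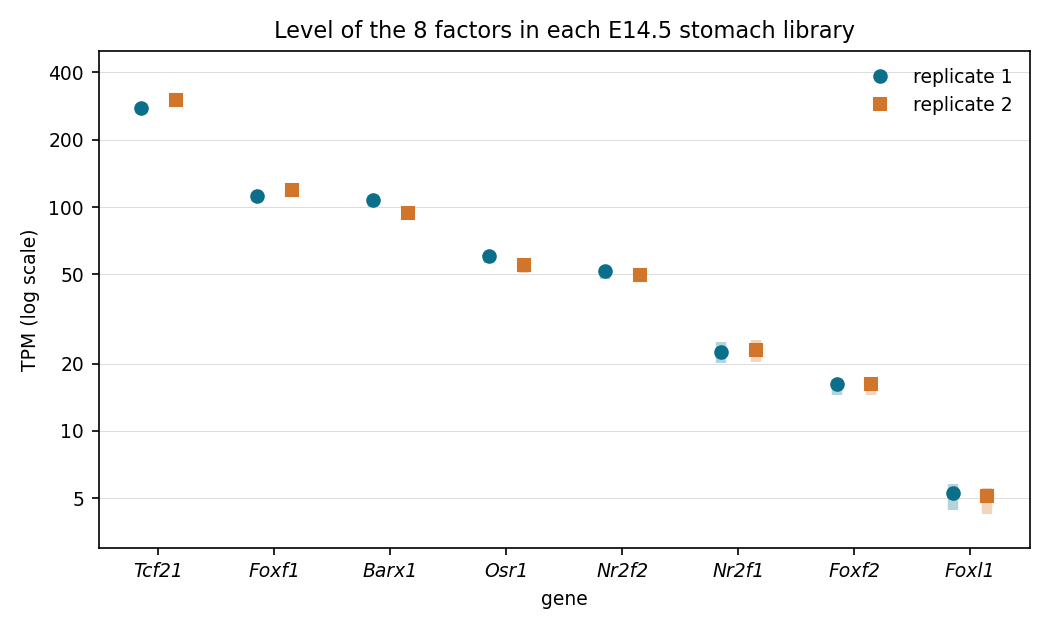
Deposited TPM (log axis) of each of the 8 genes in replicate 1 (circles) and replicate 2 (squares), with the deposited posterior interval of unstated level as pale bars. The order from Tcf21 at 279 and 300.1 TPM to Foxl1 at 5.30 and 5.10 TPM is the same in both libraries.

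Barx1 encodes a homeodomain protein of the BarH-like family and marks the mesenchyme of the stomach among the parts of the gut. It had 108 TPM in replicate 1 and 94.5 TPM in replicate 2, an average of 101 ± 9.22 TPM (SD, n = 2). Those values rest on 2357 and 2199 expected counts. Replicate 1 held the higher level, and the SD was 9.13% of the mean, the widest among the 8 genes by deposited TPM. By the scaled counts described below, Tcf21 and Foxf1 differed more between the libraries than Barx1. Of the protein-coding genes at TPM 1 or more, 90.4% lay below Barx1 in replicate 1 and 89.4% in replicate 2. Its relative Barx2 was near the limit of detection, with 18 and 11 counts, or 0.570 and 0.330 TPM. The TPM of Barx1 was thus 189 times that of Barx2 in replicate 1 and 286 times in replicate 2, ratios that rest on these few Barx2 counts. The 3 protein-coding genes whose levels over the 2 libraries were closest to those of Barx1 were Spcs2 at 106 and 94.4 TPM, Lgals4 at 107 and 95.4 TPM and Snx5 at 107 and 95.7 TPM. This likeness is over 2 samples.

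Foxf1 encodes a forkhead protein that acts in the splanchnic mesoderm and in gut smooth muscle. It had 112 TPM in replicate 1 and 119.9 TPM in replicate 2, with 4374 and 4968 counts and an average of 116 ± 5.54 TPM (SD, n = 2). Foxf1 was higher in replicate 2, the reverse of Barx1. Foxf2, the closely related gene that acts with Foxf1 in gut mesenchyme, had 16.2 TPM in replicate 1 (620 counts) and 16.1 TPM in replicate 2 (654 counts). These 2 values were almost the same, with a mean of 16.2 ± 0.0778 TPM (SD, n = 2). That SD is smaller than counting error, since the counting interval of the Foxf2 ratio, given below, runs from 0.861 to 1.08. Foxf1 therefore exceeded Foxf2 by 6.89 times in replicate 1 and 7.43 times in replicate 2. Foxl1, a forkhead gene whose expression marks mesenchymal cells lying directly under the gut epithelium, had 5.30 and 5.10 TPM on 233 and 238 counts. It was the least abundant of the 8, with a mean of 5.20 ± 0.141 TPM (SD, n = 2). Only 19.4% and 19.9% of detected protein-coding genes lay below it, against 90.9% and 91.9% for Foxf1.

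Tcf21 encodes a basic helix-loop-helix factor of visceral mesenchyme that is required in mouse for lung, kidney and spleen development. It had 279 TPM in replicate 1 and 300.1 TPM in replicate 2, on 5277 and 6037 counts, with an average of 289 ± 15.3 TPM (SD, n = 2). Tcf21 was the most abundant of the 8 in both libraries and, like Foxf1, was higher in replicate 2. Among detected protein-coding genes, 96.7% and 97.1% lay below it.

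Osr1 encodes a zinc finger protein of the odd-skipped family that acts in foregut and kidney mesoderm. Its level was 60.6 TPM in replicate 1 and 54.9 TPM in replicate 2, with 1953 and 1879 counts and a mean of 57.8 ± 4.02 TPM (SD, n = 2). As for Barx1, replicate 1 held the higher value. Nr2f2 encodes COUP-TFII, an orphan nuclear receptor of mesenchyme and of venous and lymphatic endothelium. It had 51.6 and 49.7 TPM on 3028 and 3075 counts, a mean of 50.7 ± 1.32 TPM (SD, n = 2). Nr2f1 encodes the related COUP-TFI, which is known in neural development and in mesenchyme. Its values were 22.5 and 22.9 TPM on 929.72 and 997.74 counts, a mean of 22.7 ± 0.346 TPM (SD, n = 2). Nr2f2 exceeded Nr2f1 by 2.30 times in replicate 1 and 2.17 times in replicate 2, and neither gene's libraries lay far apart.

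The order of the 8 levels, Tcf21, Foxf1, Barx1, Osr1, Nr2f2, Nr2f1, Foxf2 and Foxl1, was the same in both libraries, and for all 7 pairs of neighbours in it the 2 libraries' values did not overlap. With 2 libraries each, such a gap is a description. The step between Foxf1 and Barx1 was the narrowest in replicate 1, with a TPM ratio of 1.04, and stood at 1.27 in replicate 2. In replicate 1 the deposited posterior intervals of these 2 genes overlapped, 105 to 111 TPM for Foxf1 and 99.98 to 108 TPM for Barx1, so their order is not settled there. The step between Osr1 and Nr2f2, at ratios of 1.18 and 1.10, was the narrowest in replicate 2. The widest step was from Foxf2 to Foxl1, at 3.07 and 3.16 times. Levels are given per length because the genes differ in it, and by raw counts only 5 of the 8 would keep their place.

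Among 11 close relatives of the 8 genes, 5 reached TPM 1 in both libraries. Nr2f6, another COUP-TF family gene, was the highest at 49.7 and 38.7 TPM, close to Nr2f2 in replicate 1 and below it in replicate 2. The forkhead gene Foxq1 had 28.4 and 21.5 TPM, above Foxf2 and Foxl1 in both libraries. Tcf15, a helix-loop-helix relative of Tcf21 known from somites, had 9.83 and 10.4 TPM, so the TPM of Tcf21 was 28.3 and 28.9 times as high. Osr2 lay at 5.81 and 3.06 TPM, 10.4-fold and 17.95-fold under Osr1. Msc was at 1.77 and 2.36 TPM. The others stayed under TPM 1 in both libraries. These included Foxc1 at 0.550 and 0.360 TPM and Foxc2 at 0.430 and 0.150 TPM. Foxd1 had 0 counts in replicate 1 and 2 in replicate 2, and Foxd2 had 2 and 0. Within each of the 5 families, a member of the 8 had the highest level of the relatives examined in both libraries.

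**Figure D2:**
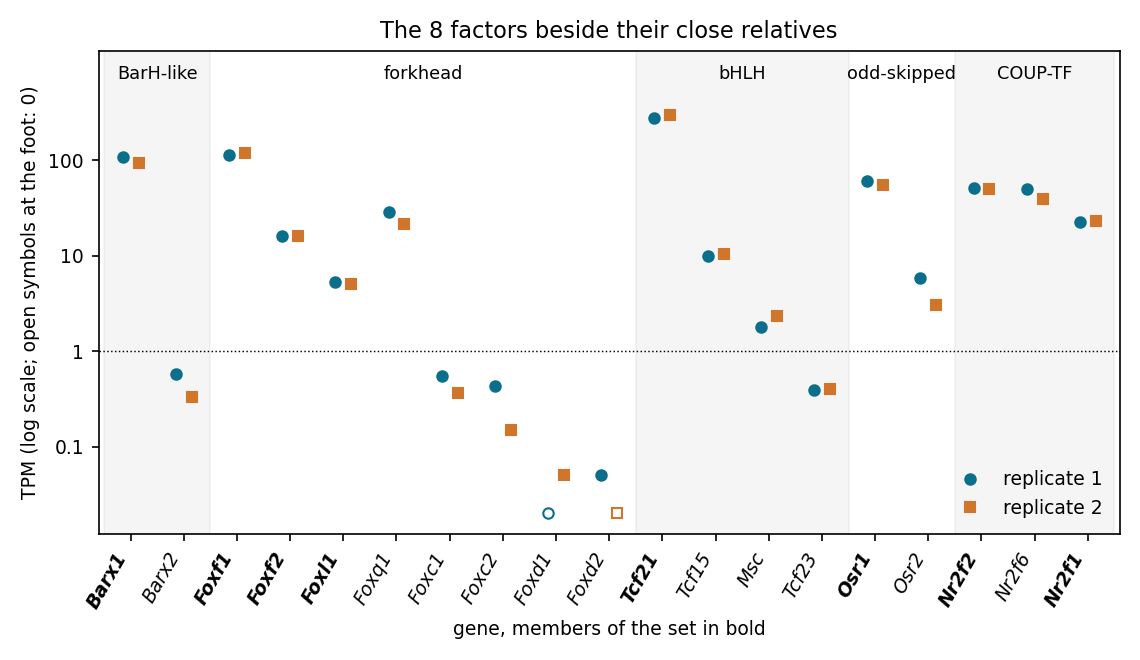
TPM (log axis) of the 8 genes, in bold, and of 11 relatives, by protein family, in replicate 1 (circles) and replicate 2 (squares). The dotted line is TPM 1, open symbols are values of 0, and Nr2f6 at 49.7 and 38.7 TPM is the highest of the relatives.

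Of 20 other transcription factors known from gut or visceral mesenchyme, 19 reached TPM 1 in both libraries, and 19 lay below Barx1 in both. Meis1, a homeodomain cofactor, was the exception at 117 and 116 TPM, a level that overlapped that of Foxf1. Meis2 followed with 65.6 and 62.7 TPM, and Zeb2, a zinc finger gene of mesenchyme and neural crest, with 51.6 and 52.0 TPM. Nkx3-2, a homeobox gene of the posterior stomach and spleen mesenchyme, had 2.13 and 1.48 TPM on 58 and 43 counts. Barx1 was thus 50.5 and 63.9 times as abundant as Nkx3-2 in these whole stomachs. Hand1 was the single factor on the list not detected by the rule, with 0.990 and 0.490 TPM on 30 and 15 counts. The median over the 20 genes was 11.2 and 9.21 TPM, against 56.1 and 52.3 TPM over the 8. Both lists were chosen with earlier results of these data known, so the gap between the medians is a description only.

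**Figure D3:**
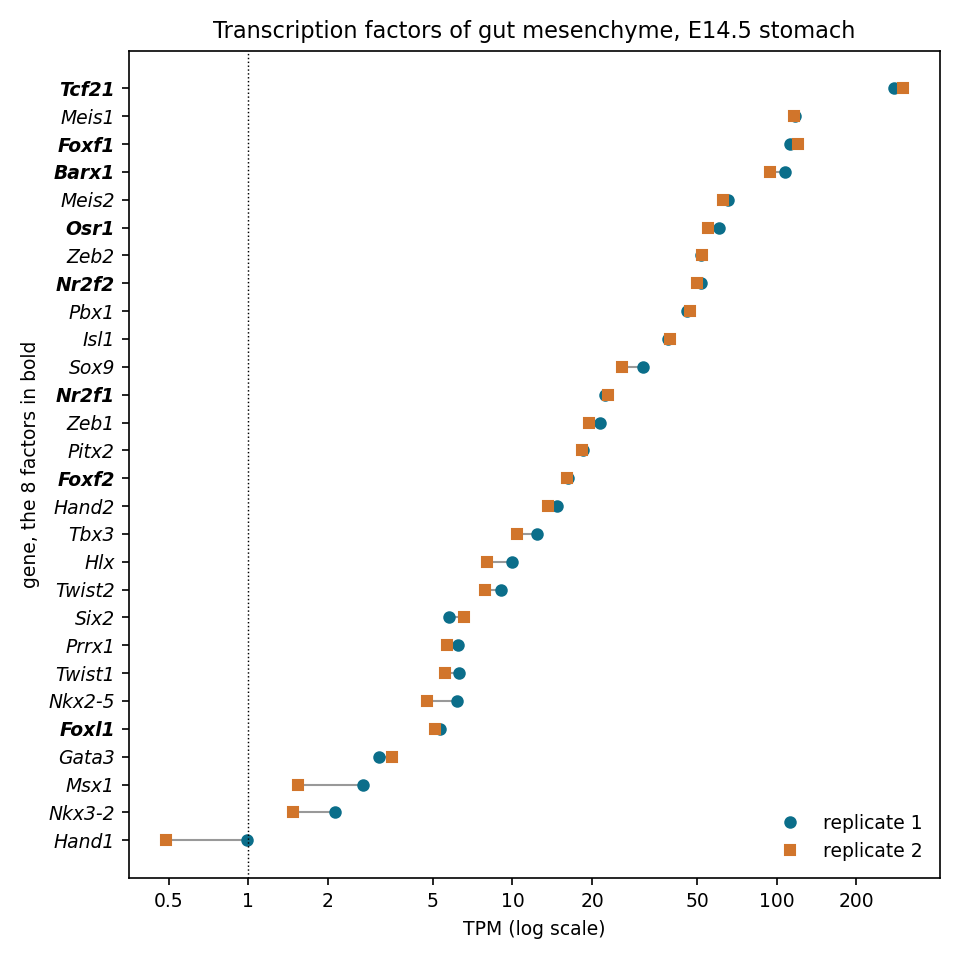
TPM (log axis) of the 8 genes, in bold, and of 20 other transcription factors of gut and visceral mesenchyme, ordered by mean, with a line joining replicate 1 (circle) and replicate 2 (square). Tcf21 lies alone at the top, and only Meis1 among the 20 others lies above Barx1 in both libraries.

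Transcripts of secreted proteins and of pathway genes tied to these factors were present as well. All 9 Wnt antagonist genes examined were detected. Sfrp2 had 131 and 126 TPM and Sfrp1 103 and 98.7 TPM, so Barx1 stood at 0.819 and 0.750 times Sfrp2 and at 1.04 and 0.957 times Sfrp1. Dkk3, the next, had 22.4 and 23.2 TPM. Of 10 hedgehog pathway genes, 9 were detected, all 10 below Barx1. The receptor Ptch1 had 39.7 and 40.9 TPM, the transducer Smo 42.7 and 35.3 TPM, and the transcription factor Gli3 25.1 and 25.6 TPM. The ligand Ihh, made by gut epithelium, had 23.0 and 21.5 TPM, above Shh at 3.98 and 3.39 TPM. All 12 signalling ligands and R-spondins examined were detected, led by Bmp4 at 41.2 and 47.5 TPM and Wnt5a at 29.2 and 30.9 TPM, with Rspo3 next at 18.6 and 18.3 TPM.

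None of the 8 genes differed over 2-fold between the libraries, and 0.298% of the 12761 genes averaging at least 100 counts did. At 1.5-fold the count was also 0 of 8, against 1.25% of those genes, and 3.6% of genes averaging at least 10 counts differed over 2-fold. Ratios here are replicate 1 over replicate 2 of expected counts, scaled by the trimmed mean of M values (TMM), with a 95% exact interval that covers counting error only. A single library stands on either side, so no p-value is given. The interval left out a ratio of 1 for 3 of the 8, and for 34.8% of all 12761 genes. Barx1 was higher in replicate 1, at a ratio of 1.09 (interval 1.03 to 1.15), as were 19% of genes by the same rule. Tcf21 at 0.888 (0.855 to 0.921) and Foxf1 at 0.894 (0.858 to 0.931) were lower in replicate 1, as were 15.8% of genes. The shares are close to those of genes at large.

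The other 5 had intervals that held 1. Osr1 stood at 1.06 (0.990 to 1.13), Nr2f2 at 1.00 (0.951 to 1.05), Nr2f1 at 0.946 (0.864 to 1.04), Foxf2 at 0.963 (0.861 to 1.08) and Foxl1 at 0.994 (0.826 to 1.20). The interval was widest for Foxl1, which had the fewest counts. In all, 2 of the 8 had a ratio above 1, against 51.9% of genes. The median log2 ratio was -0.03 over the 8 and 0.01 over all 12761 genes, and the median absolute log2 ratio was 0.08 and 0.10. The largest absolute log2 ratio among the 8 was 0.17, for Tcf21, and 95% of genes lay within 0.38.

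**Figure D4:**
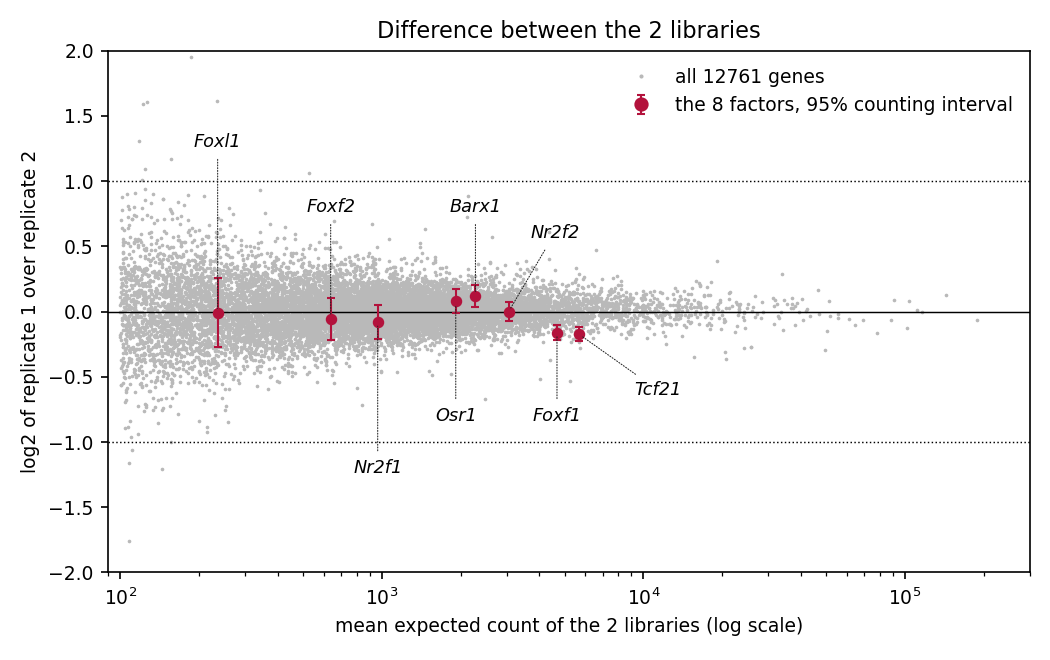
Log2 ratio of replicate 1 over replicate 2 against the mean expected count (log axis) for all 12761 genes averaging at least 100 counts (grey) and for the 8 factors (red, with the 95% counting interval). The dotted lines mark 2-fold, 24 genes lie beyond the plotted ratios and 1 beyond the plotted counts, and the 8 factors all lie within 0.17 of 0.

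These ratios depend on what is taken as constant. When spike-in counts set the scale, the median gene stood at a log2 ratio of 0.27, all 8 factors were above 0, and Tcf21 and Foxf1 turned to 0.10 and 0.11. The deposited TPM, whose total includes spike-ins at 12.1% in replicate 1 and 14.2% in replicate 2, was higher in replicate 1 for 5 of the 8. The share of all genes higher in replicate 1 was not computed for either choice of scale. A ratio between 2 members inside each library is free of this choice. Barx1 stood at 0.386 times Tcf21 in replicate 1 and 0.315 times in replicate 2. The count ratio of the pair differed between the libraries by 0.29 on the log2 scale (interval 0.19 to 0.39). Likewise Barx1 stood at 0.960 and 0.789 times Foxf1, a log2 difference of 0.28 (0.18 to 0.39), and the Osr1 to Tcf21 ratio differed by 0.25 (0.14 to 0.36). Replicate 1 thus held more Barx1 and Osr1 per Tcf21 than replicate 2. These pairs set the highest ratios of the 8 against the lowest in the same data, which favours an interval without 0. The share of other gene pairs with such an interval was not computed, so the differences are a description. Foxf1 to Foxf2 and Nr2f2 to Nr2f1 differed by -0.11 (-0.28 to 0.06) and 0.08 (-0.07 to 0.23), intervals that include 0.

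Markers of some other cell types also moved between the libraries. By the same interval rule, 19% of the 12761 genes were higher in replicate 1 and 15.8% lower. All 4 mesothelial genes were higher in replicate 1 by their intervals, with a median log2 ratio of 0.31 and a sum of 80.5 TPM in replicate 1 and 63.4 TPM in replicate 2. Of 6 genes of venous and lymphatic endothelium, where Nr2f2 is also active, 5 were higher in replicate 1 by their intervals. Aplnr stood at a log2 ratio of 0.04 (-0.04 to 0.13), and the 6 genes summed to 128 and 109 TPM. Among these, Lyve1 had 7.97 and 4.52 TPM and Prox1 1.55 and 0.980 TPM, while Nr2f2 itself had a ratio of 1.00. All 4 epithelial genes were higher in replicate 1 by their intervals as well, at a median log2 ratio of 0.13. Other lists were mixed. Fibroblast and smooth muscle markers each had 3 of 6 genes higher and 1 lower in replicate 1 by their intervals. Markers of interstitial cells of Cajal had 1 of 3 higher and 1 lower. In replicate 1, 3 of 5 blood endothelial, 2 of 4 pericyte, 1 of 5 enteric crest and 1 of 4 macrophage genes were higher, with none lower. Liver genes did not move together, with sums of 26.4 and 26.5 TPM over 4 genes. Among these, Alb had 44 and 122 counts, and Afp was lower in replicate 1 at a log2 ratio of -0.54 (-0.84 to -0.25). Ttr at 0.21 (-0.02 to 0.43) and Serpina1a at 0.72 (-0.04 to 1.56) stood above 0, with intervals that include 0. Of the 2 spleen primordium factors examined, Tlx1 had 16 counts in replicate 1 and 3 in replicate 2. Nkx2-5, with 148 and 121 counts, had a log2 ratio of 0.31 (-0.04 to 0.67), an interval that includes 0. The part that these markers, or the pancreatic genes above, have in the ratios of the 8 factors was not tested.

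The annotated neighbourhoods of the 8 genes (GENCODE M21, build GRCm38) put some of these values in context. Foxf1 at chr8:121084386-121088144 and Foxl1 at chr8:121127940-121130644 lie on the plus strand with starts 43554 bp apart, and Foxc2 starts between them. In that cluster Foxf1 was the most abundant, Foxl1 far lower, and Foxc2 lowest at 19 and 7 counts. Fendrr, a long noncoding RNA gene on the opposite strand known from mouse lateral mesoderm, starts 1276 bp upstream of Foxf1. Its level was 44.9 and 54.2 TPM on 1174 and 1441 counts, so that Foxf1 stood at 2.49 and 2.21 times Fendrr. Like Foxf1, Fendrr was lower in replicate 1, with a log2 ratio of -0.27 (-0.39 to -0.16). The log2 difference of the Foxf1 to Fendrr ratio between libraries was 0.11 (-0.01 to 0.24). A similar pair lies at Foxf2 (chr13:31625816-31631403), where the noncoding gene 1700018A04Rik starts 24 bp away on the opposite strand. It had 5.38 and 5.19 TPM on 88 and 98 counts, a lower level than that of Foxf2 in both libraries.

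In all, 15 annotated genes overlapped 1 of the 8 or started within 20000 bp of its start, and Barx1 at chr13:48662998-48666507 was the single gene with no such neighbour. The tables held 12 of the 15, of which 5 had 0 counts in both libraries, and the other 3 were not analysed here. The deposited files do not state whether counting used strand, and reads of genes on opposite strands may then be mixed. This bears on Nr2f1, whose antisense gene A830082K12Rik, with 259.28 and 272.26 counts, shares 123 exon bases with it. The deposited posterior SD of the count was the same in these 2 genes, 0.440 in replicate 1 and 0.430 in replicate 2, and 0 in the other members except Foxl1. For Foxl1, which shares no exon base with a gene examined on the opposite strand, it was 3.08 and 3.37, so an SD above 0 is not by itself a mark of such overlap. It bears on Nr2f2 too. On the opposite strand, a transcript of B130024G19Rik in M21 covers all 643 bases of the first exon of the shorter Nr2f2 form. That transcript was not in the annotation used for counting, and the gene's other transcripts had 404 and 458 counts. The posterior SD was 0 for both Nr2f2 and B130024G19Rik. It cannot show whether their reads were mixed, since the overlapping transcript was not part of the counting. Gm20388, a readthrough annotation that spans Foxf1 and Foxl1, shares no exon base with either.

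Sequence just before the start was available for 5 of the 8 genes in the RefSeq promoter table (GRCm38.p6). Those of 4 are shown, 5′ to 3′ on the gene's strand and ending just before the first annotated start, since they show how unlike these outermost starts are. The windows of Nr2f1 lay inside an annotated transcript and are not shown. Capitals mark GC boxes, the letters GGGCGG or their reverse complement CCGCCC, overlaps allowed.
Barx1, chr13:48662786-48662997, plus strand: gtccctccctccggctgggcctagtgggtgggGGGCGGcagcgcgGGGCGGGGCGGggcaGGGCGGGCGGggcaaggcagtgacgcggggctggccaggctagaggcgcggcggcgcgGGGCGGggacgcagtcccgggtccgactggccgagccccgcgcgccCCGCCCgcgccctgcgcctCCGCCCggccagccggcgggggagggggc
Foxf2, chr13:31625566-31625815, plus strand: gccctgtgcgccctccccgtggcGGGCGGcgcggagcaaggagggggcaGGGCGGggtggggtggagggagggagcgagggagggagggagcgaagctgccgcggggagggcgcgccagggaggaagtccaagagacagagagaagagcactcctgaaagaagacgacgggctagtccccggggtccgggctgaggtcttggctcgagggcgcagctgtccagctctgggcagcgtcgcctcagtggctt
Tcf21, chr10:22820175-22820393, minus strand: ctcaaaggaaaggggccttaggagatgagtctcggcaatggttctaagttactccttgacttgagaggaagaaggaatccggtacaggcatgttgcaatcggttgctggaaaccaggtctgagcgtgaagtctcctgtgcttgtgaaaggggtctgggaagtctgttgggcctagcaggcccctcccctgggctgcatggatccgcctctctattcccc
Nr2f2, chr7:70366747-70366996, minus strand: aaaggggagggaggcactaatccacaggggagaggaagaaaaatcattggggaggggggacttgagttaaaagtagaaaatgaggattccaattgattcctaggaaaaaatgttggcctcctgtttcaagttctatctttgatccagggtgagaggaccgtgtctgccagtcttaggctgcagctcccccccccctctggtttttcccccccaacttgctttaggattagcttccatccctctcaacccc
The window of Nr2f2 precedes the start of its shorter form, described below with its share. The start of its leading long form lies 6142 bp downstream, and the sequence before that start was not examined.

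In the 200 bases from 250 to 51 before the RefSeq start, the GC content was 85% for Barx1, 72% for Foxf2 and 54.5% for Tcf21. It was 50% for Nr2f2, whose window here is that of its shorter form only. The median over 32851 promoters of mouse genes was 51.5%. A lower GC content was found in 99.9% of promoters for Barx1 and in 93.6% for Foxf2. That window held 8 GC boxes in Barx1, a number that 0.0548% of promoters reached, and 2 in Foxf2, which 10.3% reached. Neither Tcf21 nor Nr2f2 held 1, and 24.6% of promoters held at least 1. The observed over expected frequency of CpG was 0.845 for Barx1, 0.754 for Foxf2, 0.284 for Tcf21 and 0.0833 for Nr2f2, with a median of 0.357. Tcf21, the most abundant of the 8, thus had a window near the median in GC, and Barx1 one near the top. The letters CCAAT (or ATTGG) were found 2 times in Nr2f2 and in 28.4% of promoters. None of the 4 windows held TATAAA, the forkhead core GTAAACA, the nuclear receptor half-site AGGTCA or the Gli core ACCACCC on either strand. These letters occurred in 9.14%, 2.58%, 11.4% and 3.18% of all promoters. Such matches are a description of the letters in these windows only.

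At the transcript level, the 8 genes had 13 transcripts in the tables. For 6 genes there was 1 transcript, so their whole level was assigned to it. Nr2f2 and Nr2f1 had several, and in each the same form led in both libraries. The COUP-TF proteins bind DNA through a pair of zinc fingers encoded in the first coding exon of the long form, and the coding forms differ in their first exons and in how far the last exon extends.

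Nr2f2 had 2 forms that join different first exons to the same second exon. The long form ENSMUST00000032768.9, of 4220 bases and 414 codons, has 442 coding bases in its first exon. The short form ENSMUST00000089565.5, of 1664 bases and 281 codons, starts 6142 bp further upstream and has 43 coding bases in its first exon. Their exon junctions are shown over 30 bases (minus strand of chromosome 7, GENCODE M21 on GRCm38), because the forms part there. Capitals mark the last 15 bases of the first exon.
Nr2f2 long form: GCATGAGACGGGAAGctgtacagagaggca
Nr2f2 short form: GCAAATATGGTTTTGctgtacagagaggca
The long form had 38.7 TPM in replicate 1 and 36.8 TPM in replicate 2, or 75.0% and 73.9% of the gene (74.5% ± 0.735, SD, n = 2). The short form had 12.9 and 13.0 TPM, or 25.0% and 26.1%. The long form led in both libraries at nearly the same share. By counts, which are not divided by length, the short form made up 11.2% and 11.8%, on 340.36 and 362.90 counts with posterior SDs of 17.9 and 17.7. The size of its share therefore depends on the annotated lengths. The first exon of the short form is also the one that B130024G19Rik covers on the opposite strand. If counting did not use strand, reads of that gene may be among the counts of the short form, which was not tested.

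Nr2f1 had 5 transcripts in the tables, 1 of them at 0 counts in both libraries. The long form ENSMUST00000091458.8, of 3207 bases and 420 codons, led with 57.0% and 54.2% of the gene's TPM (55.6% ± 1.95, SD, n = 2), and 72.1% and 69.3% of its counts. The next form, ENSMUST00000150498.3, has 263 codons and no coding bases in its first exon, and took 23.5% and 24.5%. Another, ENSMUST00000125176.2, has 273 codons and took 10.1% and 16.3%. The share of ENSMUST00000125176.2 rests on 28.29 and 49.70 counts with posterior SDs of 12.9 and 18.2, so its difference between libraries is within the error of the estimate. The noncoding ENSMUST00000135284.1, of 368 bases, took 9.46% and 4.96% on 9.63 and 5.48 counts. Forms other than the long one together made up 43.0% and 45.8% of the gene's TPM, against 27.9% and 30.7% of its counts. The junctions of the 3 leading forms (minus strand of chromosome 13), with the first exon again in capitals, share their second exon.
Nr2f1 long form: GCATGAGGCGGGAAGcggttcagcgaggaa
Nr2f1 ENSMUST00000150498.3: CTAGCAGTGTGATCTcggttcagcgaggaa
Nr2f1 ENSMUST00000125176.2: ATATGTTTGGCTACTcggttcagcgaggaa
At this junction the long forms of Nr2f1 and Nr2f2 have the same base at 14 of the 15 first-exon positions. Every other pair of the 5 forms shown has 4 to 6 of 15 in common. In both genes the long form led in each library, by a wider margin in Nr2f2 than in Nr2f1.

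**Figure D5:**
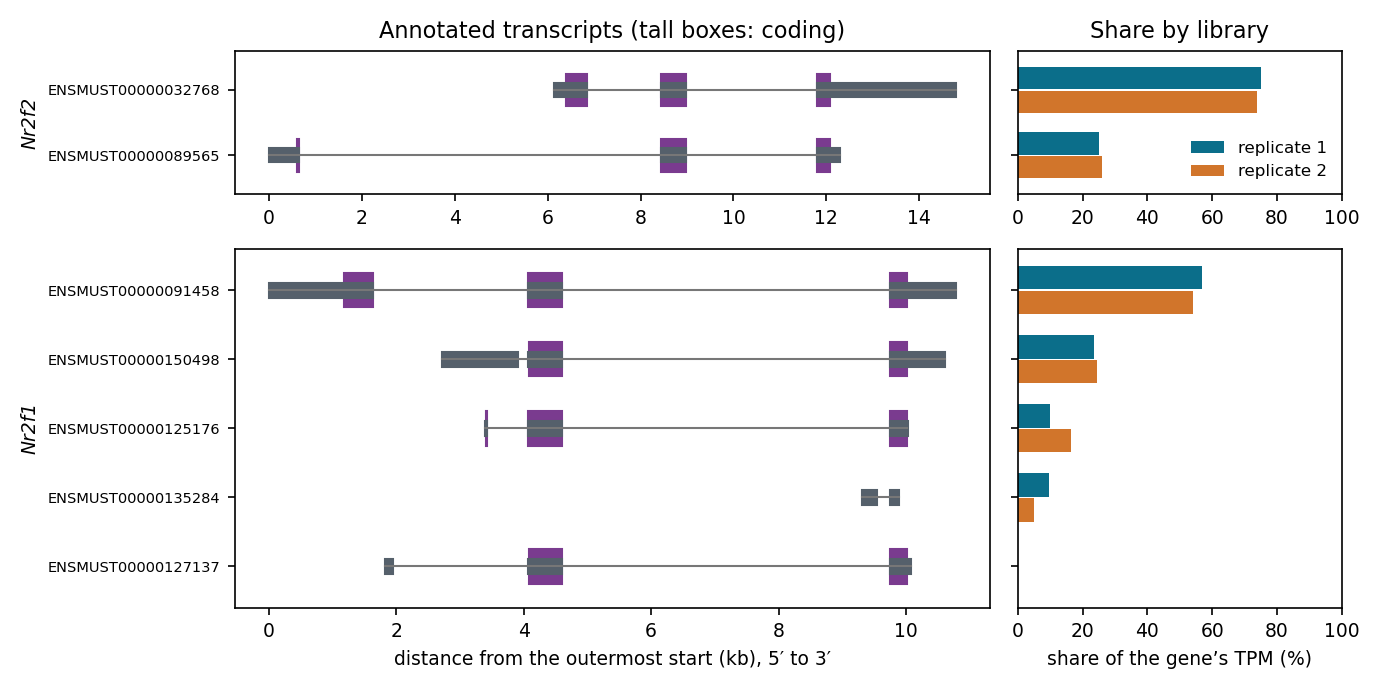
Left, exons of the transcripts of Nr2f2 (top) and Nr2f1 (bottom) against the distance in kb from the outermost annotated start, with coding parts as tall boxes; right, each transcript's share of its gene's TPM in replicate 1 and replicate 2. The long form takes 75.0% and 73.9% for Nr2f2, and 57.0% and 54.2% for Nr2f1.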

How the data were processed

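Total RNA longer than 200 nt from E14.5 stomachs was sequenced from 10 ng per sample, per the labels, which link a Smart-seq protocol. For each of the 2 libraries the authors deposited tables of genes and transcripts on mm10 with GENCODE M4. Aligner, counting program and use of strand: not given in the sources used here. The deposited expected counts are estimated and not normalized. The deposited TPM values include 96 spike-ins in their total. The deposited percent values give each transcript's share of its gene's TPM. The deposited posterior means, SDs and interval bounds (other) describe the authors' estimate, and the bounds belong to the posterior mean, so a TPM can lie outside them.

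The 26248 numbered entries, with 15.47 and 25 counts, and the spike-ins were left out of library sizes, which left 23668322 and 23882647 counts on genes. A library with 0 counts of a gene may have missed up to 3. The intervals and this floor hold counting error alone, since PCR copies are not independent molecules.

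Ratios are of expected counts with TMM library sizes (edgeR 4.0.16, R 4.3.3), with 0.5 added to each count. The 95% interval is the exact conditional binomial one on rounded counts. DESeq2 1.42.0 size factors were an alternative. Symbols, positions and exons came from GENCODE M21 on the same assembly, promoters from RefSeq, and lists from textbook knowledge. Members and lists were chosen with earlier results of these data known. Named genes were the 8, their relatives, the 3 most abundant of each pathway list, genes near the 8, the 3 genes nearest Barx1 in log2(TPM + 1), and transcripts of 10% or more. Others, such as Nkx3-2, Hand1, Shh, Ihh, Lyve1, Prox1, Alb, Afp, Tlx1 and the noncoding Nr2f1 transcript, were named after their values were seen. Scripts used scipy 1.17.1, matplotlib 3.10.9, pandas 2.3.3 and numpy 2.4.6 under Python 3.11.15.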

Additional observations from a re-analysis of the deposited data

How the results depend on the processing

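All 8 genes were detected at a TPM of 0.5 or 5, by posterior mean TPM and in either library alone (8 to 8 without replicate 1 or 2), and none was over 1.5-fold or 2-fold apart under any scaling. DESeq2 size factors, posterior mean counts and total gene counts left 3 genes beyond counting error, and 2 or 3 higher in replicate 1. Scaling on spike-in counts moved each log2 ratio by 0.27. It put 7 genes beyond counting error and 8 higher in replicate 1, and it reversed Tcf21 to 0.10 and Foxf1 to 0.11. The median gene stood at 0.27 by that scaling. Shares over all genes were not computed for it, so these counts are not read as particular to the 8. Rescaling TPM without spike-ins and mitochondrial genes raised each level by a factor of 1.20, and posterior means changed levels by a factor of 0.961 to 1. The order of levels held for 8 of 8 by posterior mean and without replicate 1 or 2, and for 5 of 8 by expected counts not divided by length. The leading transcript was the same for 8 of 8 by posterior mean shares. For 6 of these it was fixed by their single transcript, so only the 2 genes with several, Nr2f1 and Nr2f2, could have differed. Leaving out a library gives no ratio between libraries. No paired analysis was possible because there is 1 group. The 2 libraries limit precision, most of all for Foxl1, at 233 and 238 counts.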
